A study of Mus musculus with 9 samples.

Results

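The amino acid and ER stress response genes are 46 genes taken from a list of names: 18 cytosolic aminoacyl-tRNA synthetases, 8 transcription factors and regulators of the integrated stress response, 9 enzymes of amino acid and one-carbon metabolism, 2 other known stress targets and 9 chaperones and sensors of the endoplasmic reticulum (ER). Of the 46, 36 had values, among 8742 genes with values in all, and 30 had counts in every library. The other 10 (Eprs, Iars, Kars, Mars, Cebpb, Cebpg, Hspa5, Hsp90b1, Herpud1 and Pdia4) have no values in the tables used here. Expression was measured by bulk RNA sequencing in untreated mouse esophageal epithelial organoids, which are small 3-dimensional cultures of the lining of the esophagus, harvested on day 7 after seeding. There were 3 groups of 3 libraries: wild type (WT), a group labelled as a knockout of Trp53 and Notch1 (PN), and a group labelled as a knockout of Trp53, Cdkn2a and Notch1 (PCN). Both edited groups therefore carry the Trp53 and Notch1 labels, and they differ by the Cdkn2a label. The labels give no strain, sex or age, no way of editing and no batch. They do not say whether a group comes from 1 clone or whether the 3 libraries of a group come from separate cultures, so p-values measure the spread between these libraries, which may be technical.

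When cells run short of an amino acid, or when unfolded protein builds up in the ER, kinases such as Gcn2 and Perk phosphorylate the translation factor eIF2. General translation slows, while translation of the transcription factor Atf4 increases, and Atf4 with its C/EBP partners switches on genes for making, importing and charging amino acids. The unfolded protein response has further arms through Ire1 (Ern1), which splices the Xbp1 messenger RNA, and through Atf6, and these raise chaperones and degradation factors of the ER. Because eIF2 phosphorylation, Atf4 translation and Xbp1 splicing are not seen in gene counts, only the RNA levels of the pathway are described here.

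Library totals recovered from the files were 14695420 to 15093994 reads in WT, against 16857744 to 18912526 in PN and 17422590 to 20198041 in PCN. Trp53 ranged from 29.2 to 30.0 FPKM (fragments scaled to gene length and library total) in WT, from 0.562 to 0.801 in PN and from 0.624 to 0.979 in PCN. Notch1 ranged from 15 to 19.5 FPKM in WT, from 9.87 to 10.8 in PN and from 4.67 to 5.40 in PCN. Cdkn2a went against its label, at 5.54 to 8.83 FPKM in WT, against 18.3 to 19.4 in PN and 53.2 to 59.9 in the libraries labelled PCN. Reads summed over a locus cannot check an edit, and "PCN" is used throughout as the label given. The 8 squamous epithelium markers all had values in at least 1 table, and over the 6 with counts in every library their summed level was 15074 to 16172 FPKM in WT, against 3948 to 4130 in PN and 4988 to 5158 in PCN. Of the markers of other cell types, 0 of 7 for fibroblasts, 0 of 3 for muscle, 1 of 6 for leukocytes, 1 of 4 for plasma cells and 1 of 4 for endothelium had values, and a marker with none says nothing of its level. That sum is mostly Krt13 and Krt4, keratins of differentiated layers, whose means were 8718 and 5336 FPKM in WT, 1153 and 1172 in PN, and 1533 and 1034 in PCN. The basal markers Krt15, Trp63 and Krt14 did not follow it. In WT, PN and PCN their means were 170.0, 413.6 and 930.5 FPKM for Krt15, 57.9, 83.2 and 77.4 for Trp63, and 1115, 1118 and 1384 for Krt14. Of the other markers of the list, only Cdh1 had values in all groups. Krt5 had no WT values and means of 3017 FPKM in PN and 2744 in PCN. Sox2 had no PN values and means of 119.5 FPKM in WT and 89.2 in PCN. Cdh1 had means of 177.7, 103.4 and 94.5 FPKM in WT, PN and PCN. The leukocyte marker with values was Cd68, at 74.8 to 95.1 FPKM in WT, against 18.9 to 21.5 in PN and 12 to 13.5 in PCN. Sdc1, the plasma cell marker, which epithelium also makes, was at 436 to 533 FPKM in WT, against 244 to 258 in PN and 135 to 147 in PCN. Esam, the endothelial marker, stood between 1.59 and 4.08 FPKM in all 9 libraries. The part of these differences in the results below was not tested.

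The clearest pattern lay between the edited groups. Of the 46 genes, 23 (50%) were lower in PCN than in PN and 0 were higher, while over all genes tested 11.5% were lower and 12.3% were higher. The 46 were chosen with earlier results of these data known. A share of them set beside that of all genes, here and below, is a description and no test. The genes lower in PCN included Atf4 itself, Atf5, Chac1, Asns, Cth and Mthfd2. A call here means an adjusted p under 0.05 by the quasi-likelihood test of edgeR, adjusted after Benjamini and Hochberg over all genes the authors tested in that pair (14758 for PCN against PN). Each of the 24 members listed by the authors for this pair had a log2 fold change below 0, so 0 were higher at an unadjusted p under 0.05. Every alternative processing, DESeq2 included, covered the listed genes only, and members outside the list could not be called. That the count of 0 higher genes held under each alternative is therefore no further support for it. Shmt2 was listed by the authors for this pair and was not called here (adjusted p = 0.06), and 12 of the genes with values were not listed for it. Over the 33 members with counts in both groups the median log2 fold change of PCN over PN was -0.35 and 30 were below 0, while over 6844 genes with counts in both groups the median was 0.00 and 49.5% were below 0. In bulk libraries, fewer cells of a type and less RNA per cell cannot be told apart.

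Against WT the same genes moved both ways. In PN, 15 of the 46 (32.6%) were higher than in WT and 9 (19.6%) were lower, against 17.6% and 18.8% of all genes, so that the share of lower members was near the background. In PCN, 8 (17.4%) were higher than in WT and 20 (43.5%) were lower, against 17.5% and 19.0% of all genes, so that here the share of higher members was near the background. The median log2 fold change was 0.13 for PN over WT (33 members) and -0.35 for PCN over WT (30 members), beside -0.07 over 7095 genes and -0.08 over 7094 genes. The 3 comparisons share libraries and are not independent. The tables also hold only genes that the authors had already called for a pair on these libraries, so a call made again on the same counts is no independent evidence, and a gene outside a pair's table is given here by its value with no call.

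**Figure D1:**
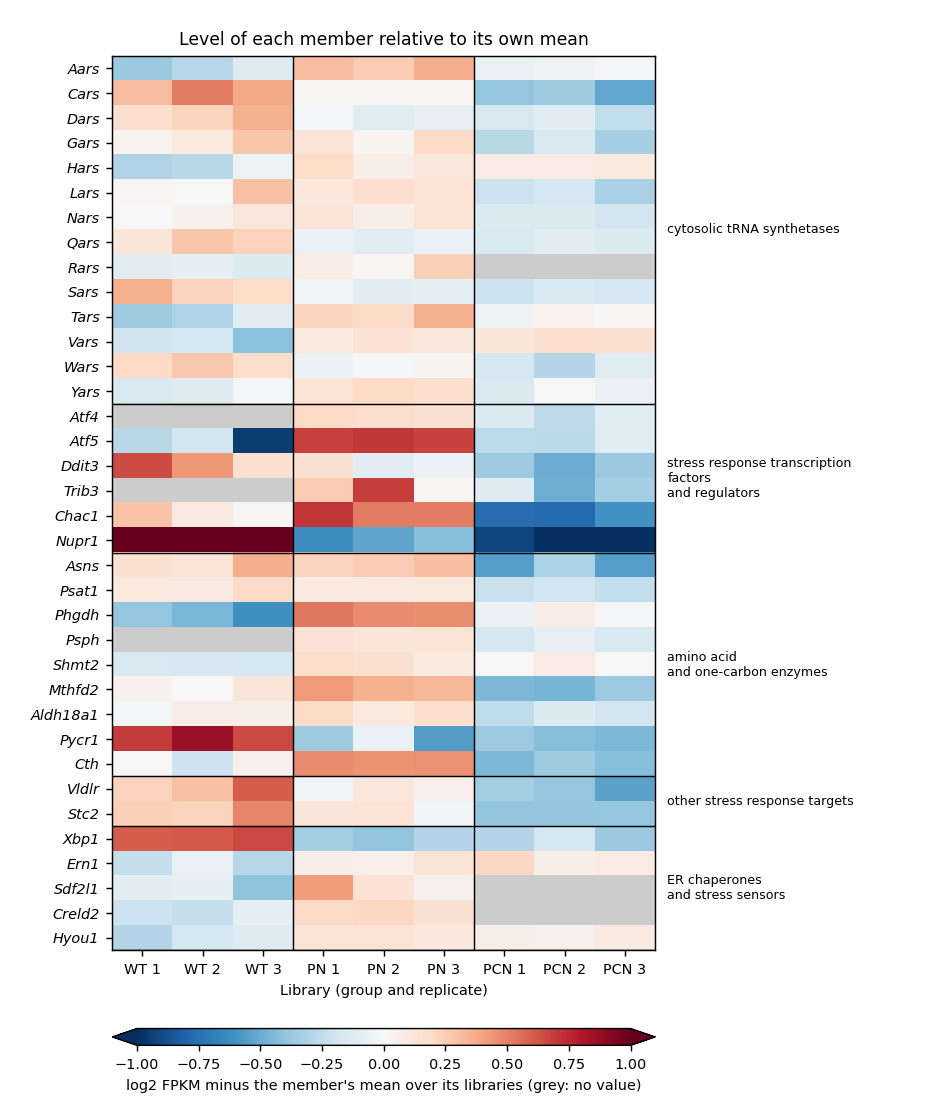
Level of the 36 genes with values in each of the 9 libraries, grouped by role. Colour shows the log2 FPKM minus the gene's mean over its libraries; grey cells have no values, colours are capped at 1 and -1, and 16 of the 30 genes with all 9 libraries have every PCN library below the other 6.

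Combining the 2 comparisons with PN, 7 genes were higher in PN than WT and lower in PCN than PN (Aars, Tars, Yars, Atf5, Phgdh, Mthfd2 and Cth), and 4 were lower at both steps (Cars, Wars, Nupr1 and Vldlr). The largest set, 12 genes, was lower in PCN than PN and not listed between PN and WT: Gars, Lars, Nars, Atf4, Ddit3, Trib3, Chac1, Asns, Psat1, Psph, Aldh18a1 and Stc2. The reverse held for another 12, which were called between PN and WT and not listed between PCN and PN: Hars, Rars, Vars, Ern1, Sdf2l1, Creld2 and Hyou1 were higher in PN, and Dars, Qars, Sars, Pycr1 and Xbp1 were lower. Shares of all genes with such joint calls were not computed. Both comparisons use the same PN libraries, so nothing is read from the sizes of these sets. Over the 30 genes with all 9 libraries, PCN had the lowest mean in 19 and PN the highest mean in 15, again with no share over all genes. All 3 PCN libraries lay below the other 6 in 16 of the 30, against 17.4% of 6644 genes, and all 3 PN libraries lay above the other 6 in 11, against 11.8%.

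**Figure D2:**
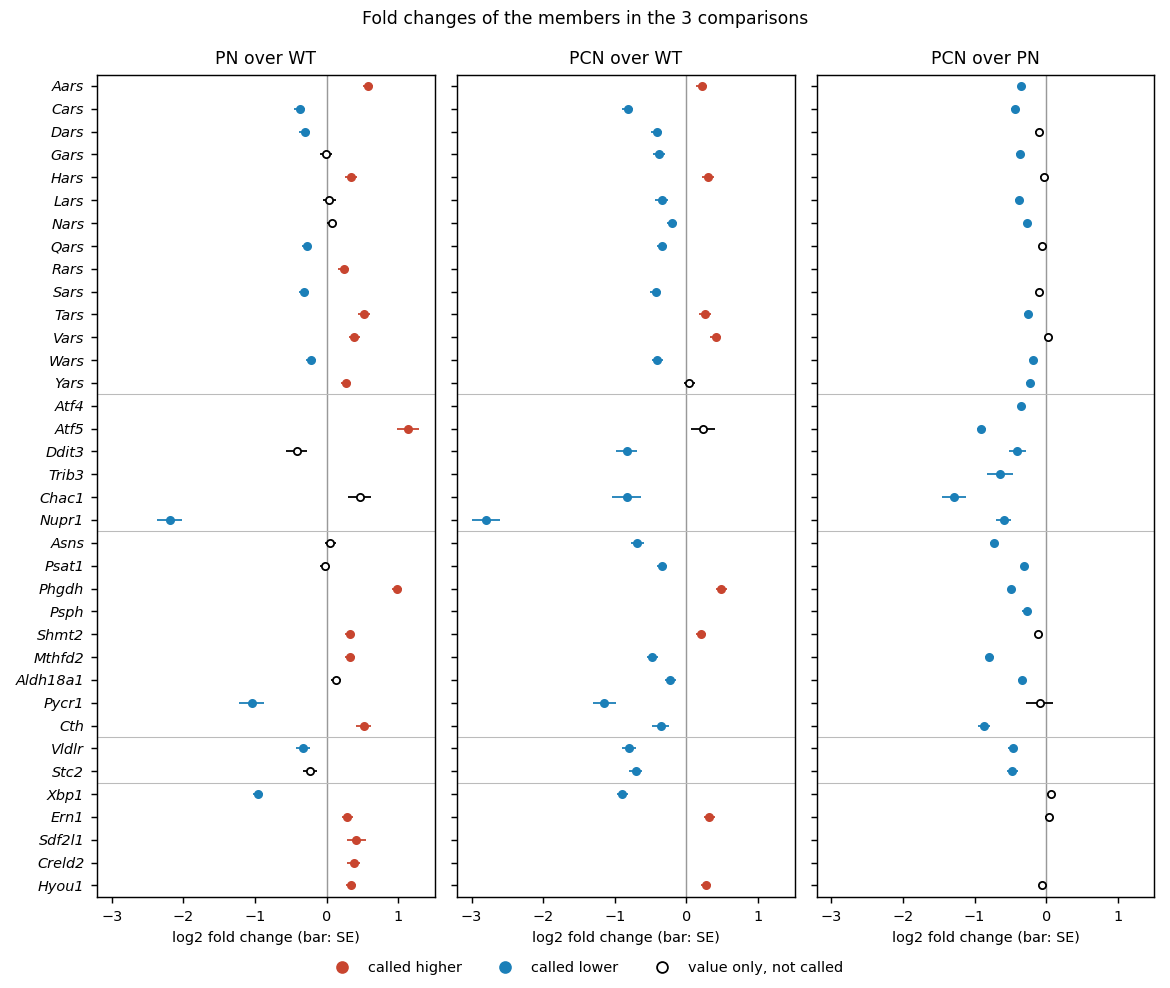
Log2 fold change with its standard error for each gene in the 3 pairs of groups, on a shared axis. Filled and open points separate genes called at an adjusted p under 0.05 from values with no call; in PCN over PN every called gene lies left of 0.

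Among the transcription factors and regulators, Atf4, Atf5, Ddit3, Trib3, Chac1 and Nupr1 had values. All 6, which is 75% of the 8 listed, were lower in PCN than PN, beside 11.5% of all genes. Atf4 (ENSMUSG00000042406, chr15:80255184-80257541, plus strand, build GRCm38), the central activator of the response, was at 95.2, 93.6 and 92.2 FPKM in the PN libraries and 75.0, 69.2 and 76.2 in the PCN libraries, with no values in WT. The 2 groups did not overlap, and the log2 fold change was -0.35 ± 0.05 (SE, n = 3 per group, adjusted p = 8.9e-07). Atf5, a related factor whose translation is controlled in the same way, was at 15.7, 16.7 and 9.91 FPKM in WT, 30.6, 31.2 and 30.6 in PN and 15.9, 15.9 and 17.6 in PCN. The PN libraries stood above all the others, while WT and PCN overlapped. PN was higher than WT by 1.14 ± 0.16 on the log2 scale (adjusted p = 0.00026), PCN was lower than PN (-0.90 ± 0.07, adjusted p = 5.3e-12), and PCN over WT was 0.23 ± 0.17 with no call.

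Chac1 (ENSMUSG00000027313, chr2:119351229-119354381, plus strand), an enzyme that degrades glutathione and is a sensitive target of Atf4, was at 4, 3.49 and 3.32 FPKM in WT, 5.40, 4.71 and 4.68 in PN and 1.94, 1.93 and 2.17 in PCN. These levels rest on 98, 84 and 82 reads in WT, 149, 131 and 145 in PN and 64, 55 and 66 in PCN. Every PCN library lay below, and every PN library above, the 3 WT libraries. The log2 fold change was -1.29 ± 0.17 for PCN over PN (adjusted p = 3.9e-07), -0.84 ± 0.20 for PCN over WT (adjusted p = 0.0039) and 0.46 ± 0.16 for PN over WT with no call. Trib3, a pseudokinase that feeds back on Atf4, had 116, 159 and 110 reads in PN (3.24, 4.41 and 2.74 FPKM) and 107, 72 and 85 in PCN (2.49, 1.95 and 2.15 FPKM), with no values in WT. Its lowest PN library lay just above its highest PCN library, and the log2 fold change was -0.65 ± 0.18 (adjusted p = 0.0066). Without PN replicate 2 it was no longer called (adjusted p = 0.13, with a range of 0.0008 to 0.13 over the alternatives).

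Ddit3 (Chop), a factor tied to prolonged ER stress and cell death, was at 11.6, 9.93 and 8.24 FPKM in WT, 8.17, 6.84 and 7.07 in PN and 5.72, 5.23 and 5.71 in PCN. The groups did not overlap and stood in the order WT, PN, PCN, with WT replicate 3 close to PN replicate 1. PCN was lower than WT (-0.83 ± 0.15, adjusted p = 0.00041) and lower than PN (-0.40 ± 0.12, adjusted p = 0.011), and PN over WT was -0.42 ± 0.14 with no call. The call against PN was lost without PN replicate 1 (adjusted p = 0.1) and with all 9 libraries in 1 fit (adjusted p = 0.059), over a range of 0.0062 to 0.1. Nupr1, a small chromatin protein induced by many stresses, was at 57.0, 46.8 and 33.9 FPKM in WT, 9.27, 9.91 and 10.7 in PN and 7.56, 5.85 and 6.32 in PCN. It had the largest fold among the members, with each edited library far below each WT library. The log2 fold change was -2.19 ± 0.17 for PN over WT (adjusted p = 6.8e-06), -2.80 ± 0.20 for PCN over WT (adjusted p = 7.5e-06) and -0.60 ± 0.10 for PCN over PN (adjusted p = 2.3e-05). The last call was lost with all 9 libraries in 1 fit (adjusted p = 0.062), over a range of 4.1e-06 to 0.062.

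**Figure D3:**
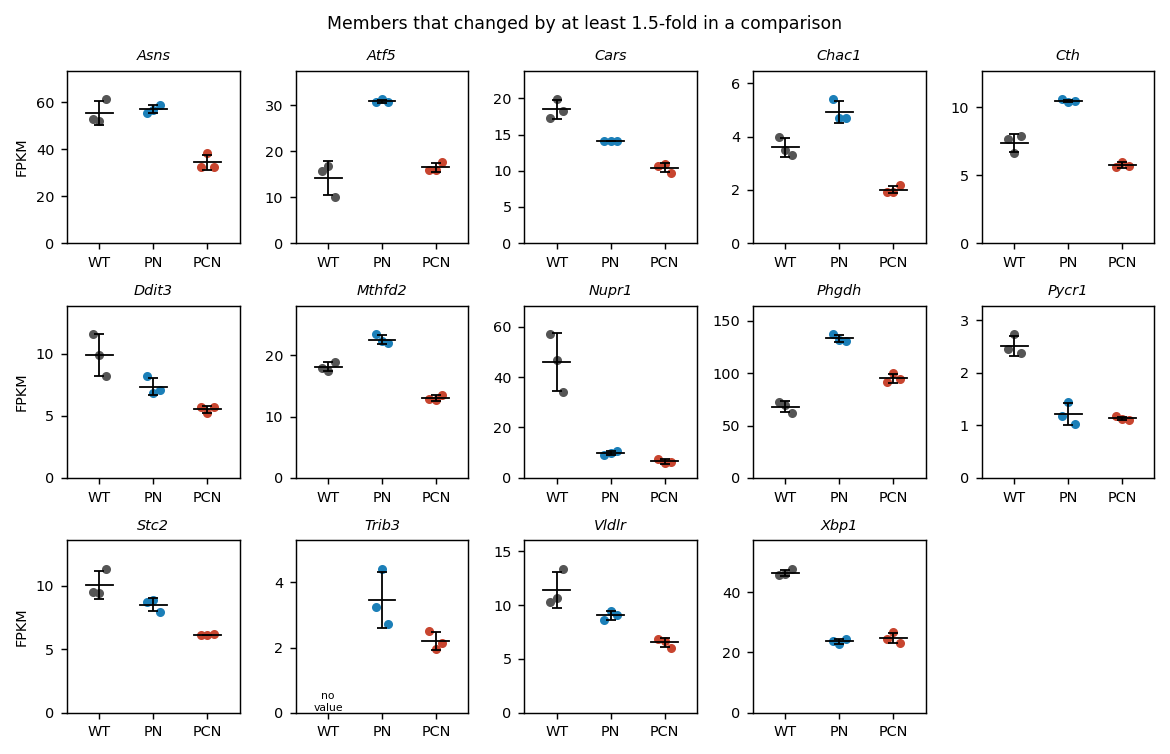
Level in FPKM of each gene called in at least 1 pair with a fold of at least 1.5, per library, with the group mean as a horizontal line and the SD as an error bar. Points are the 3 libraries of WT, PN and PCN on linear axes from 0; Nupr1 and Xbp1 are high in WT, Atf5 and Phgdh are highest in PN, and Asns, Chac1 and Mthfd2 are lowest in PCN.

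The promoters of several of these genes hold the C/EBP-ATF element, the sequence through which Atf4 and its partners are known to act. In RefSeq promoter windows (build GRCm38.p6, 250 bases before to 50 after the start), matched by symbol for 36 of the 46 genes, the letters TGATGNAA stood on either strand in 12 (33.3%), against 4.51% of 27025 genes with windows of the same length. The 12 were Aars, Asns, Chac1, Gars, Herpud1, Iars, Nupr1, Pycr1, Tars, Trib3, Vldlr and Yars, and 9 of the 18 matched genes that were lower in PCN than PN held it. Of the rest that held it, Herpud1 and Iars had no values and Pycr1 was not listed between PCN and PN. Whether the element goes with the decrease was not tested. The ER stress element (CCAAT, 9 bases, CCACG, on either strand) stood in Creld2, Hsp90b1 and Hspa5, 3 of 36 (8.33%) against 0.137% of genes. Hsp90b1 and Hspa5 had no values and Creld2 had none in PCN, so none of the 3 could be among those 18. The 46 genes were picked by name for their part in these responses, so the shares with an element do not test the list. No window of these genes held both elements. A match describes letters in a window and is no sign that a factor is bound. Shown are the 250 bases before the start for the 3 genes with the element and the largest change between PCN and WT, Nupr1 (chr7:126625471-126625720, minus strand), Pycr1 (chr11:120643749-120643998, minus strand) and Chac1 (chr2:119350992-119351241, plus strand), together with 2 chosen after their values were seen, Asns (chr6:7693210-7693459, minus strand), the classic gene for this element, and Creld2 (chr15:88819396-88819645, plus strand), which holds the ER stress element. Sequences run 5′ to 3′ on the strand of the gene, and capitals mark the element, which lies on the strand of the gene in Pycr1 and Asns and on the opposite strand in Nupr1, Chac1 and Creld2.
Nupr1: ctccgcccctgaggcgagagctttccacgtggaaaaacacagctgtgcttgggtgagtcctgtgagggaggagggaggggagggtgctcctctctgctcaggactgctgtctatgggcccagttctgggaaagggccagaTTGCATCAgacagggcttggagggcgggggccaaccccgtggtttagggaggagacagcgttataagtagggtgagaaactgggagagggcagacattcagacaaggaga
Pycr1: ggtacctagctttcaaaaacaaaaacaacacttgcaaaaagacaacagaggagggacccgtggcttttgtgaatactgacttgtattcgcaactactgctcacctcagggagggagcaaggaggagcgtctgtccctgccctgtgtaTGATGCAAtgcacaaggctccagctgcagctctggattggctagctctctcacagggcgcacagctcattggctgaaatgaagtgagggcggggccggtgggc
Chac1: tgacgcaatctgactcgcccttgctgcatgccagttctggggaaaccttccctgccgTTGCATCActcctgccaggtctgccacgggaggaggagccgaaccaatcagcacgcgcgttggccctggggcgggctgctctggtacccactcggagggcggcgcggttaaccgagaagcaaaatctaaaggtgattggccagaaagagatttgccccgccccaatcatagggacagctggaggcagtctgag
Asns: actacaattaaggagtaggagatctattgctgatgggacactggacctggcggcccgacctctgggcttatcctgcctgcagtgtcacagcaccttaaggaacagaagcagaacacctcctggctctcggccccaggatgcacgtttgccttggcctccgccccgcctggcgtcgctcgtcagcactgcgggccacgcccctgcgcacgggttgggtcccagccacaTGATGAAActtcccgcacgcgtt
Creld2: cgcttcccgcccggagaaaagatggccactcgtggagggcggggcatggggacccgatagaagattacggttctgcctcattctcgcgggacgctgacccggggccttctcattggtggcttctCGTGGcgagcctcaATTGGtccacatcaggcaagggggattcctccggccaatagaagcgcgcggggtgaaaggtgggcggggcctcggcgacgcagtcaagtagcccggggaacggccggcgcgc

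**Figure D4:**
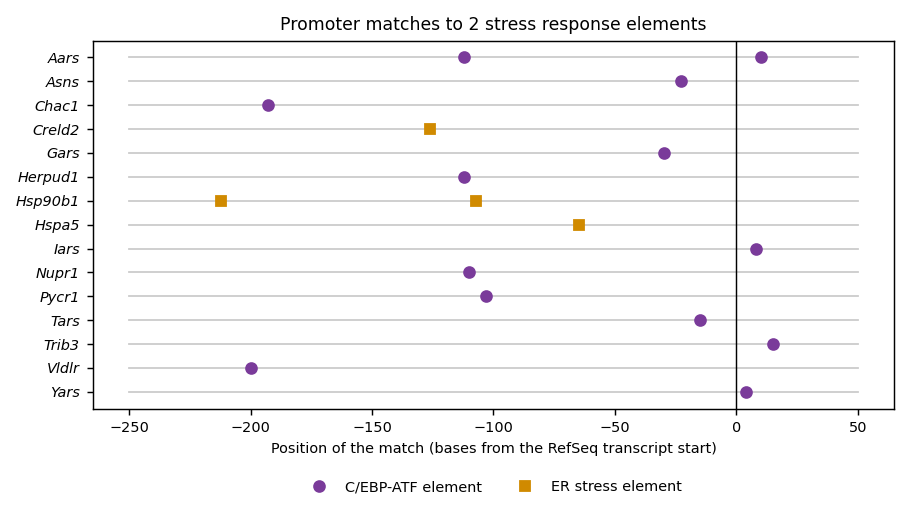
Position of each element relative to the transcription start in the windows of the genes that hold one, in bases. The first base of the C/EBP-ATF element lies at -23 in Asns, -110 in Nupr1 and -193 in Chac1.

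Of the 9 enzymes of amino acid and one-carbon metabolism, all had values. In PCN against PN 7 (77.8%) were lower and 0 higher, beside 11.5% and 12.3% of all genes. Asns (ENSMUSG00000029752, chr6:7675169-7693254, minus strand), which makes asparagine, was at 53.0, 52.1 and 61.3 FPKM in WT, 55.6, 56.7 and 58.9 in PN and 32.5, 38.3 and 32.5 in PCN. WT and PN overlapped, and PCN lay below both. The log2 fold change was -0.73 ± 0.06 for PCN over PN (adjusted p = 7.7e-11), -0.68 ± 0.09 for PCN over WT (adjusted p = 3.4e-05) and 0.05 ± 0.08 for PN over WT with no call. Mthfd2 (ENSMUSG00000005667, chr6:83305691-83325908, minus strand), the mitochondrial folate enzyme, was at 18, 17.5 and 19.0 FPKM in WT, 23.4, 22.3 and 21.9 in PN and 12.8, 12.7 and 13.6 in PCN. The 3 groups did not overlap, with PN highest and PCN lowest, and each pair was called (PN over WT 0.32 ± 0.07, adjusted p = 0.003; PCN over WT -0.48 ± 0.08, adjusted p = 0.00025; PCN over PN -0.79 ± 0.06, adjusted p = 1.2e-11).

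Cth (ENSMUSG00000028179, chr3:157894248-157925077, minus strand), which makes cysteine from cystathionine, showed the same order, at 7.66, 6.61 and 7.88 FPKM in WT, 10.6, 10.4 and 10.4 in PN and 5.59, 5.96 and 5.68 in PCN. PN was higher than WT (0.52 ± 0.10, adjusted p = 0.0013) and PCN was lower than PN (-0.87 ± 0.09, adjusted p = 2.6e-09). PCN was also lower than WT (-0.36 ± 0.12, adjusted p = 0.025), and that call was lost without WT replicate 1 (adjusted p = 0.07) or any 1 of PCN replicates 1, 2 and 3 (0.097, 0.05 and 0.085) and with TMM scaling over the listed genes (0.076), over a range of 0.0072 to 0.097. Phgdh, the entry step of serine synthesis, was at 72.8, 69.4 and 62.2 FPKM in WT, 137, 132 and 131 in PN and 91.3, 100.1 and 94.5 in PCN. It was highest in PN and lowest in WT, with no overlap, by 0.98 ± 0.07 for PN over WT (adjusted p = 2.7e-07), 0.49 ± 0.08 for PCN over WT (adjusted p = 0.00021) and -0.49 ± 0.05 for PCN over PN (adjusted p = 9.9e-10). Psat1, the next step of the serine pathway, had mean levels of 152.5, 148.8 and 119.9 FPKM in WT, PN and PCN, with PN over WT at -0.02 and no call, and was lower in PCN than PN (-0.31, adjusted p = 4.8e-07) and than WT (-0.34, adjusted p = 0.0013). Psph, the last step, had no WT values and a mean of 13.7 FPKM in PN, and was lower in PCN (-0.27, adjusted p = 0.0009).

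Shmt2, which passes carbon from serine into the mitochondrial folate pool, had the highest mean over its libraries among the members, with group means of 129.3, 160.1 and 148.1 FPKM in WT, PN and PCN; in WT, Psat1 stood above it. It was higher than WT in PN (0.32, adjusted p = 0.0012) and, by less, in PCN (0.20, adjusted p = 0.035). The PCN call was lost without WT replicate 2 (adjusted p = 0.087) or any 1 of PCN replicates 1, 2 and 3 (0.1, 0.18 and 0.08), and its adjusted p ranged from 0.0051 to 0.18. Between PCN and PN, Shmt2 (-0.11) gained a call with TMM scaling over the listed genes (adjusted p = 0.008) and with DESeq2 (adjusted p = 0.046). It also gained one without PCN replicate 2 (adjusted p = 0.029) or PN replicate 3 (adjusted p = 0.039), over a range of 0.008 to 0.3.

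The 2 proline enzymes differed. Pycr1, the last step of proline synthesis, had 144, 158 and 141 reads in WT, 78, 96 and 76 in PN and 93, 77 and 81 in PCN, or 2.44, 2.73 and 2.37, then 1.18, 1.44 and 1.02, then 1.17, 1.12 and 1.11 FPKM. Both edited groups lay below WT (PN -1.05 ± 0.17, adjusted p = 0.0003; PCN -1.15 ± 0.16, adjusted p = 6.6e-05), and they overlapped each other. Aldh18a1, the first step, had means of 24.4, 26.4 and 20.8 FPKM in WT, PN and PCN and was lower in PCN than PN (-0.35, adjusted p = 9e-06). It was also lower in PCN than WT (-0.23, adjusted p = 0.027), a call lost without PCN replicate 1 (adjusted p = 0.16), PCN replicate 3 (0.085) or WT replicate 2 (0.095) and with TMM (0.14), with a range of 0.0078 to 0.16.

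Aminoacyl-tRNA synthetases load amino acids onto their tRNAs, and each is named by the letter code of its amino acid. Of the 18 cytosolic enzymes 14 had values. In PCN against PN 8 of the 18 (44.4%) were lower and 0 higher, beside 11.5% and 12.3% of all genes. In PN against WT 6 (33.3%) were higher and 5 (27.8%) lower, beside 17.6% and 18.8%. In PCN against WT 4 (22.2%) were higher, near the background of 17.5%, and 8 (44.4%) were lower, beside 19.0%. Cars (cysteine) had the largest decrease, at 17.4, 19.9 and 18.2 FPKM in WT, 14.1, 14.1 and 14.1 in PN and 10.6, 10.9 and 9.72 in PCN. Its 3 groups did not overlap, and it was lower in PN than WT (-0.38 ± 0.07, adjusted p = 0.00088), in PCN than WT (-0.82 ± 0.08, adjusted p = 2.1e-06) and in PCN than PN (-0.44 ± 0.06, adjusted p = 3.9e-07).

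The other synthetases moved by less than 1.5-fold in each pair and fell into several patterns. Aars (alanine) and Tars (threonine) were higher in PN than WT, by 0.58 (adjusted p = 4.2e-05) and 0.52 (adjusted p = 0.00019), and lower in PCN than PN, by -0.35 and -0.26. Yars (tyrosine) showed the same pair of calls at a smaller size, 0.27 and -0.23. Gars (glycine), Lars (leucine) and Nars (asparagine) were within 0.07 of WT in PN with no call, and were lower in PCN than PN by -0.37, -0.38 and -0.27. Dars (aspartate), Qars (glutamine) and Sars (serine) were lower than WT in both edited groups, at -0.31, -0.28 and -0.32 in PN and -0.41, -0.34 and -0.43 in PCN. Hars (histidine) and Vars (valine) were higher than WT in both, at 0.34 and 0.39 in PN and 0.30 and 0.41 in PCN, and Rars (arginine), with no PCN values, was higher in PN (0.24, adjusted p = 0.023). Wars (tryptophan) was lower at each step, by -0.22 in PN against WT and -0.18 in PCN against PN.

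Several of the small synthetase differences lost their call under an alternative while keeping their direction. Rars in PN against WT, at 0.17 to 0.28 on the log2 scale with 1 library left out, was no longer called without PN replicate 1 (adjusted p = 0.056), PN replicate 3 (0.18) or WT replicate 2 (0.056), with a range of 0.0051 to 0.18. Wars, at -0.19 to -0.24 in PN against WT with 1 library left out, lost its call there without PN replicate 1 (0.13), 2 (0.084) or 3 (0.052) or WT replicate 2 (0.088) and with TMM scaling over the listed genes (0.16), over a range of 0.0034 to 0.16. Its call in PCN against PN was lost without PCN replicate 2 (0.14), PN replicate 2 (0.061) or PN replicate 3 (0.073) and with all 9 libraries in 1 fit (0.078), over a range of 0.0048 to 0.14. In PCN against WT, Aars was higher (0.21, adjusted p = 0.043; 0.16 to 0.28 with 1 library left out) and lost its call without PCN replicate 1 (0.11), 2 (0.12) or 3 (0.15) or WT replicate 1 (0.16) or 2 (0.14), over a range of 0.0004 to 0.16. In the same pair Nars was lower (-0.21, adjusted p = 0.03; -0.18 to -0.23 with 1 library left out) and lost its call without PCN replicate 1 (0.1), 2 (0.086) or 3 (0.13) or WT replicate 2 (0.068) and with TMM (0.18), over a range of 0.0067 to 0.18. Tars (0.26, adjusted p = 0.02) lost it without PCN replicate 2 (0.091) or 3 (0.068) or WT replicate 1 (0.069) or 2 (0.09), over a range of 6.3e-05 to 0.091. Hars (adjusted p = 0.011) lost it without WT replicate 2 (0.055), over a range of 3.7e-05 to 0.055.

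The other 2 targets were both lower in PCN than in PN and WT. Stc2, a secreted glycoprotein induced by ER stress, was at 9.47, 9.38 and 11.3 FPKM in WT, 8.74, 8.87 and 7.90 in PN and 6.11, 6.11 and 6.15 in PCN. Its groups did not overlap, with PCN lower than WT (-0.71 ± 0.09, adjusted p = 3.4e-05) and than PN (-0.47 ± 0.07, adjusted p = 4.8e-06), and PN over WT at -0.23 ± 0.09 with no call. Vldlr, a lipoprotein receptor, was at 10.3, 10.7 and 13.3 FPKM in WT, 8.6, 9.45 and 9.07 in PN and 6.89, 6.68 and 6.04 in PCN, again with no overlap. It was lower in PCN than WT (-0.80 ± 0.10, adjusted p = 2.6e-05), in PCN than PN (-0.47 ± 0.06, adjusted p = 3.5e-07) and in PN than WT (-0.33 ± 0.10, adjusted p = 0.014). The last call was lost without PN replicate 1 (adjusted p = 0.067) and with TMM scaling over the listed genes (adjusted p = 0.06), over a range of 0.0022 to 0.067.

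Of the 9 ER chaperones and sensors 5 had values, and Hspa5, Hsp90b1, Herpud1 and Pdia4 had none. In PN against WT 4 (44.4%) were higher and 1 (11.1%) lower, beside 17.6% and 18.8% of all genes. In PCN against WT 2 (22.2%) were higher and 1 (11.1%) lower, beside 17.5% and 19.0%. There the share of higher members was near the background. The 3 with values in all groups (Xbp1, Ern1 and Hyou1) were not listed between PCN and PN, with log2 fold changes of -0.06 to 0.06. Xbp1 (ENSMUSG00000020484, chr11:5520659-5525893, plus strand), the transcription factor activated through Ire1, was at 45.7, 45.9 and 47.6 FPKM in WT, 23.7, 22.9 and 24.6 in PN and 24.5, 26.6 and 23.2 in PCN. Both edited groups lay well below WT and overlapped each other, at -0.96 ± 0.07 for PN (adjusted p = 1.5e-07), -0.90 ± 0.08 for PCN (adjusted p = 4.7e-07) and 0.06 ± 0.06 with no call for PCN over PN. Ern1, the sensor that splices Xbp1, was higher than WT in both, by 0.29 in PN (adjusted p = 0.0076) and by 0.32 in PCN (adjusted p = 0.0058). The chaperone Hyou1 was higher than WT in PN (0.34, adjusted p = 0.0012) and likewise in PCN (0.27, adjusted p = 0.0078). Creld2 (0.38, adjusted p = 0.0054) and Sdf2l1 (0.41, adjusted p = 0.026), ER proteins induced by unfolded protein, were higher in PN than WT and had no PCN values. Sdf2l1 lost its call without PN replicate 1 (adjusted p = 0.17) or 2 (0.054), over a range of 0.0092 to 0.17.

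Mean levels per length spanned Shmt2 at 145.8, Psat1 at 140.4 and Phgdh at 98.98 FPKM down to Chac1 at 3.52, Trib3 at 2.83 and Pycr1 at 1.62, each over the gene's own libraries. Within a group the median coefficient of variation over the members was 7.75% in WT, 3.37% in PN and 4.69% in PCN. The highest values were those of Atf5 in WT (26.1%), Trib3 in PN (24.8%) and Nupr1 in PCN (13.5%). By the GENCODE M21 annotation 8 of the 36 genes share exon bases with another gene (Aars, Atf5, Cars, Ddit3, Hars, Psph, Shmt2 and Yars). Since the counting is not stated to use strand, reads in those bases cannot be told apart. The largest overlap was that of Aars, with 1326 of its 9282 bases shared with Exosc6. It lies on the same strand, as do 105 bases that Ddit3 shares with another entry of its name, so use of strand would not separate these. The 23 genes lower in PCN than PN lay on 13 chromosomes, with at most 3 on any of them. This bears on a feature of these libraries: of the genes called for that pair, 263 of 268 on chromosome 12 starting before 95 Mb (98.1%) were lower in PCN than PN, with a median log2 fold change of -0.92, and 322 of 327 on chromosome 14 were higher. In PN against WT, 259 of the 276 genes called on chromosome 14 were lower. Genes there with no call are not in these counts. Among the 23, 1 lay on either chromosome, Wars, which starts beyond 95 Mb on chromosome 12.

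Genes of the same pathways outside the 46 were taken from 9 lists holding 121 genes, of which 80 had values. These lists too were chosen with earlier results of these data known, so their shares are descriptions. In PCN against PN 31 of the 121 (25.6%) were lower and 11 (9.09%) higher, beside 11.5% and 12.3% of all genes. In PN against WT 40 (33.1%) were higher and 25 (20.7%) lower, and in PCN against WT 26 (21.5%) were higher and 24 (19.8%) lower, beside 17.6% and 18.8%, then 17.5% and 19.0%, so that both shares of lower genes and the share higher in PCN than WT were near the background. Of the 31 lower in PCN than PN, 6 lay on chromosome 12 before 95 Mb (Mthfd1, Eif2s1, Eif2b2, Pdia6, Dnajb9 and Sel1l) and 25 elsewhere, and of the 11 higher, 4 lay on chromosome 14 (Tnfrsf10b, Dnajc3, Ero1l and Selenok) and 7 elsewhere. The same 4 genes on chromosome 14 were among the 25 lower in PN than WT, of which 20 lay elsewhere. Of the 24 lower in PCN than WT, 7 lay on chromosome 12 before 95 Mb and 3 on chromosome 14. The part of those chromosomes in these counts was not tested.

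Of 12 amino acid transporters 7 had values. In PCN against PN 5 were lower and 0 higher, beside 11.5% and 12.3% of all genes. Slc7a5, the large neutral amino acid carrier, had means of 29.9, 81.7 and 57.9 FPKM in WT, PN and PCN. It was higher than WT in PN (1.46, adjusted p = 5.5e-08) and PCN (0.96, adjusted p = 3.4e-06) and lower in PCN than PN (-0.50, adjusted p = 6.5e-10). Slc1a4, which carries serine and other neutral amino acids, was lower in PCN than PN (-0.52, adjusted p = 5.9e-10), and Slc6a9, a glycine transporter, was lower at each step (-0.56 in PN against WT and -0.45 in PCN against PN).

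Among 17 other amino acid and one-carbon enzymes 16 had values. In PCN against PN 9 were lower and 0 higher, beside 11.5% and 12.3% of all genes. In PN against WT 10 were higher and 4 lower, beside 17.6% and 18.8%. Cbs, the enzyme before Cth, had means of 0.723, 2.39 and 1.51 FPKM in WT, PN and PCN and was higher than WT in PN (1.74, adjusted p = 2.8e-05) and PCN (1.07, adjusted p = 0.0022). Bcat1, a branched-chain aminotransferase, had 46, 49 and 57 reads in WT, 16, 31 and 29 in PN and 4, 1 and 0 in PCN, so PCN stood near 0. The mitochondrial partner Bcat2 was also lower in PCN than PN (-0.78, adjusted p = 1.1e-08), and Tyms, which makes thymidylate, was higher than WT in both edited groups (1.13 and 1.08).

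Of 17 mitochondrial synthetases 7 had values. All 7 were outside the genes listed between PCN and PN, so no call could be made there. Of all genes, 12.3% were higher and 11.5% lower in that pair. In PN against WT 6 were higher and 1 lower, beside 17.6% and 18.8% of all genes. In PCN against WT 3 were higher and 0 lower, beside 17.5% and 19.0%, the share of higher genes being near the background. Mars2 was higher by 0.95 in PN and 0.70 in PCN. Of 6 other synthetase subunits and scaffold proteins 5 had values. In PN against WT 4 were higher and 0 lower, and in PCN against PN 0 were higher and 3 lower. The shares of all genes were 17.6% and 18.8%, then 12.3% and 11.5%. Tarsl2 had the largest change in both pairs (0.59, then -0.49).

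Upstream of Atf4, 9 of 12 eIF2 kinases, phosphatase subunits and eIF2 or eIF2B subunits had values. In PCN against PN 2 were higher and 4 lower, beside 12.3% and 11.5% of all genes. The share of higher genes was near the background. Eif2s1, the subunit that the kinases phosphorylate, had means of 31.4, 32.4 and 16.1 FPKM in WT, PN and PCN (-1.01 for PCN over PN, adjusted p = 9.3e-16). It and Eif2b2 (-0.97) lie in the lower stretch of chromosome 12. Eif2ak2, the kinase Pkr, was higher in PCN than PN (0.70, adjusted p = 5.9e-08), and Eif2ak3, the kinase Perk, was higher too (0.31, adjusted p = 0.00071), the latter named after its values were seen.

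Of 13 other stress targets 10 had values. In PN against WT 1 was higher and 7 lower, beside 17.6% and 18.8% of all genes. In PCN against WT 0 were higher and 6 lower, beside 17.5% and 19.0%. In PCN against PN 2 were higher and 2 lower, near the background of 12.3% and 11.5%. Ndrg1, induced by several stresses including low oxygen, had means of 141.5, 23.2 and 28.3 FPKM in WT, PN and PCN (-2.60 and -2.32 against WT). Sesn2, a leucine sensor that restrains mTORC1 and a p53 target, had means of 15.4, 7.04 and 6.23 FPKM. Gdf15, a secreted stress cytokine, was lower in PCN than PN (-1.35, adjusted p = 0.00015).

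ER folding factors outside the 46 had values for 11 of 18. In PCN against PN 3 were higher and 4 lower, beside 12.3% and 11.5% of all genes. The share of higher genes was near the background. Ero1l, the oxidase that renews disulfide bonds, lies on chromosome 14. It had means of 335.4, 62.7 and 104.4 FPKM in WT, PN and PCN (-2.41 for PN and -1.68 for PCN against WT). Pdia6, a disulfide isomerase on chromosome 12, had means of 66.3, 59.0 and 29.0 FPKM. Of 9 ER stress sensors and proteases 6 had values, with 1 higher (Creb3l2, 0.77) and 1 lower (Atf6b, -0.32) in PCN than PN. Both shares were near those of all genes, 12.3% and 11.5%. Of 18 genes of ER-associated degradation 10 had values, with 3 higher and 4 lower in PCN than PN, beside 12.3% and 11.5%. The share of higher genes was again near the background. Sel1l (-0.86), the adaptor of the main degradation ligase, lies on the lower stretch of chromosome 12, and Selenok (0.68) on chromosome 14.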

How the data were processed

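Total RNA from 9 organoid libraries was sequenced, and 3 deposited tables, 1 for each pair of groups, list the genes that the authors called at their adjusted p of 0.05. The authors gave raw counts, log2 fold changes and p-values, per the file headers. In the deposited values the normalized signal equals the count over a size factor that belongs to the library and the pair. FPKM was made by the authors from the count, the gene length and the library total. CASAVA, DESeq and the build GRCm38 (mm10) stand without versions in the submitters' processing notes. Aligner, read counter and annotation are not given in the sources read for this work.

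Library totals, size factors and the number of genes adjusted over (PN against WT 17165, PCN against WT 17300, PCN against PN 14758) were recovered from the values. For 93.1%, 93.7% and 91.9% of listed genes, in that order, the adjusted p gave that number. The counts of a pair were modelled using edgeR 4.0.16 under R 4.3.3 (robust quasi-likelihood F test, two-sided, filterByExpr by group), with the authors' size factors as offsets. Benjamini-Hochberg adjustment ran over the recovered numbers of genes, with a threshold of 0.05. Members outside a pair's table with counts in both groups were given a value from an added fit, with no call. The script was tested on simulated counts. Alternatives were DESeq2 1.42.0, TMM, library totals alone, no filter, the replicate number as a block, all 9 libraries in 1 fit, and leaving out each library.

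The members and lists were chosen with earlier results of these data known. Every member with values is named; those called with a fold of at least 1.5 are given per library, and each pathway list by up to 3 called genes with the largest change per pair, from which a few are described.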

Additional observations from a re-analysis of the deposited data

Results flagged for a closer look

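In 4 genes of the 30 with all 9 libraries, every PN library lay above, and every PCN library below, all 3 WT libraries. The edited groups thus stood on opposite sides of WT. The share of all genes with this order was not computed, so nothing is read from the count of 4. The log2 fold change of PCN over PN was -1.29 for Chac1, -0.79 for Mthfd2, -0.87 for Cth and -0.35 for Aldh18a1, and all 4 were called between PCN and PN. That comparison tests the difference between the edited groups and uses no WT library. The comparisons of PN and of PCN against WT share the WT libraries. The increase in PN over WT was called for Mthfd2 and Cth, and had no call for Chac1 and Aldh18a1. The decrease in PCN against WT was called for all 4, and for Cth and Aldh18a1 that call was lost under several alternatives. Groups of 3 libraries were too small for a check of single libraries that stand apart.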

How the results depend on the processing

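The counts of members higher (15) and lower (9) in PN than WT stayed within 1.5 times under every alternative run. So did the counts lower in PCN than WT (20) and lower in PCN than PN (23). The count of 0 higher in PCN than PN stayed too, but the alternatives covered only listed genes, and the members listed for that pair were all below 0. It is therefore no check of that count. The count higher in PCN than WT (8) was 5 without PCN replicate 2, 5 without PCN replicate 3 and 4 without WT replicate 2. Leaving out each library gave 13 to 15 and 7 to 9 members higher and lower in PN than WT, 4 to 8 and 17 to 20 in PCN than WT, and 0 to 0 and 21 to 23 in PCN than PN. All genes called ranged over 5578 to 6231, 5647 to 6341 and 3217 to 3387. Of 906 alternative values of single members 849 kept their call, 53 lost it, 4 gained it and 0 changed direction. With all 9 libraries in 1 fit, which covers 30 members, 17 were lower in PCN than PN: Atf4, Trib3 and Psph were not covered, and Nupr1, Ddit3 and Wars lost the call (adjusted p = 0.062, 0.059 and 0.078).

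Same-numbered libraries did not deviate together in every pair (correlations from -0.261 to 0.21), so replicate numbers were not taken as pairs. With the number as a block, 6 members were higher and 17 lower in PCN than WT, and the other member counts were 15, 9, 0 and 23. The calls lost under the block were Aars, Nars, Shmt2, Aldh18a1 and Cth in PCN against WT. With TMM over listed genes, 3043 genes were higher and 2948 lower in PN than WT. The tables hold only called genes, so small changes in unlisted members could not be tested, and the low counts of Chac1, Pycr1 and Trib3 limit the precision of their levels.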
